A study of Mus musculus with 6 samples.

Results

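Tubulin is the building block of microtubules, and the genes described here encode its alpha and beta chains. They are the 10 genes Tuba1a, Tuba1b, Tuba1c, Tuba4a and Tuba8 (alpha) and Tubb2a, Tubb2b, Tubb3, Tubb5 and Tubb6 (beta), chosen by symbol from the 24002 genes of the RNA-seq table, by a rule that sets no level but with earlier results of these data known. All 10 were found. Polyadenylated RNA was sequenced in 3 replicates of a single condition: R1 cells, a mouse embryonic stem cell line, kept in 15% serum replacement with 1000 U/ml LIF, grown in hanging drops for 48 h to give embryoid bodies, and held in retinoic acid until day 6. The labels give the dose as 0.5 mM, and whether that unit is right is uncertain. A further 3 samples of the same condition were profiled by ATAC-seq and were not analysed here. No untreated or earlier sample belongs to these groups, so the values are levels at day 6 and no change over time or with treatment was measured.

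An alpha chain and a beta chain form a heterodimer, and heterodimers add to the ends of microtubules. Vertebrates carry several genes for each chain, called isotypes, whose proteins are alike over most of their length and differ most in their acidic C-terminal tails, where many enzymes modify tubulin. Developing neurons make large amounts of tubulin for axons and dendrites, and Tuba1a, Tubb2a, Tubb2b and Tubb3 are known as isotypes enriched in neurons, whereas Tuba1b, Tuba1c, Tubb5 and Tubb6 are known from many cell types. Cells also hold their tubulin mRNA in balance with free tubulin: the protein TTC5 binds the start of a nascent tubulin chain on the ribosome, and the mRNA is then degraded.

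Isotype genes that encode like proteins have promoters of their own, shown here for the alpha gene with the highest level, the alpha gene with the lowest level and 2 neuronal beta genes. Each run holds the 250 bases before the start, 5′ to 3′ on the gene's own strand, from RefSeq in build GRCm38.p6. Capitals mark the letters TATAA (the core of a TATA box), CCAAT and GGGCGG (a GC box), searched on both strands, so that their reverse complements are in capitals as well. Tuba1a lies at chr15:98953502-98953751 on the minus strand, Tuba8 at chr6:121210484-121210733 on the plus strand, Tubb2a at chr13:34078009-34078258 on the minus strand and Tubb3 at chr8:123411303-123411552 on the plus strand.
Tuba1a: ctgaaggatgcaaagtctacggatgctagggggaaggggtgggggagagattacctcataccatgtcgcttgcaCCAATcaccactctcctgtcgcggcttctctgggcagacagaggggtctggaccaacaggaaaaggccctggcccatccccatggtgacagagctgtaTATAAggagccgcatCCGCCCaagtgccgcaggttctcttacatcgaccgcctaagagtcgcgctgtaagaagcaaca
Tuba8: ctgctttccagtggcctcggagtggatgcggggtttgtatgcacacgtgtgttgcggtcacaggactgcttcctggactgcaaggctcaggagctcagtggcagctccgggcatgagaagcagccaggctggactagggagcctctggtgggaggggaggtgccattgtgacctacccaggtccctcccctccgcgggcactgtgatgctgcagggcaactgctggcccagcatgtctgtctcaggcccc
Tubb2a: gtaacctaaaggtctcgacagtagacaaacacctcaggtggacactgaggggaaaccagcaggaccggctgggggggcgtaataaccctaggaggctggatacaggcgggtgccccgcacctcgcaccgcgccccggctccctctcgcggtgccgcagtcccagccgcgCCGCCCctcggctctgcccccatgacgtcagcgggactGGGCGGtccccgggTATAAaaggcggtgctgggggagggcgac
Tubb3: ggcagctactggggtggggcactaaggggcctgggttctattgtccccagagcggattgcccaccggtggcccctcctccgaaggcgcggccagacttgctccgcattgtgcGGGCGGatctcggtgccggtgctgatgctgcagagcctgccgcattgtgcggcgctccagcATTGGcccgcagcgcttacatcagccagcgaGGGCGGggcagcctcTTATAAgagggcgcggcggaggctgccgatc
In Tubb2a the letters TATAA begin 29 bases before the start and in Tubb3 30 bases before it, where matches on both strands overlap, and in Tuba1a they begin 78 bases before the annotated start. The Tuba8 run held none of the 3 motifs. Promoter sequences were taken for 8 of the 10 genes: Tubb2b had no entry, and Tubb6 was left out by name. Of these 8, 3 held TATAA, 4 held CCAAT and 5 held GGGCGG, where 22.8%, 33.8% and 32.7% of all 32851 upstream windows of this length held them. Tuba1b, a broadly used alpha gene, had the highest GC content of the 8 windows at 75.6%, with 35 CG pairs, against medians of 52.4% and 6 over all windows. The motifs were chosen after the sequences were seen, a match is a description of the letters, and the deposited accessible regions are in another build and could not be set against these windows.

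The labels name the cells by their origin, embryonic stem cells, and at day 6 neural markers were high in the RNA. All 9 neuron markers were at 1 FPKM or more in every replicate, with a summed level of 1362 to 1437 FPKM, as were all 7 neural progenitor markers (1324 to 1364 FPKM) and all 8 markers of extraembryonic endoderm (394 to 540 FPKM). Of all 24002 genes, 50.7% passed. The medians of the 3 lists were 99.9, 39.1 and 14.2 FPKM. Fabp7, at a mean of 910 FPKM, was the largest part of the progenitor sum, and Sparc, at 269 FPKM, of the endoderm sum. FPKM counts fragments per length of transcript and per mapped fragments, which puts genes of unlike length on one scale. It does not settle how reads that match several genes were divided, so comparisons between genes are approximate. Of 6 pluripotency markers, 4 passed 1 FPKM, with means of 15.6 (Dppa5a), 10.4 (Klf4), 6.17 (Esrrb) and 2.14 FPKM (Zfp42). Pou5f1 and Nanog, which define the stem cell state, stood at 0.815 ± 0.0792 and 0.0879 ± 0.0318 (SD, n = 3). None of 6 mesoderm and fibroblast markers passed. Of 4 glial markers, 3 passed, with a summed level of 41.1 to 45.1 FPKM over the list. The table's FPKM summed to 477760 to 524717 per replicate. Read totals are not known, and from the steps in which low values occur, replicate 1 was estimated as 1.56-fold deeper than replicate 2 and 1.17-fold deeper than replicate 3. Nothing in the labels says that the replicates are separate cultures, so their spread may be technical.

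Of the 10 tubulin genes, 9 reached 1 FPKM in every replicate, and only Tuba8 did not, where 50.7% of all 24002 genes passed. Of the 10, 7 had a mean of 100 FPKM or more, against 2.19% of all genes. The median of the 10 means was 536 FPKM, and that of all genes was 1.31. Summed over the 10 genes, tubulin took 2.38%, 2.26% and 2.25% of all FPKM outside small RNA genes in replicates 1, 2 and 3. In bulk RNA, fewer cells of a type and less RNA per cell cannot be told apart.

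Tuba1a, the main alpha-tubulin of newborn neurons, stood at 2930, 2745 and 2745 FPKM in replicates 1, 2 and 3. Replicate 1 was the highest, and replicates 2 and 3 were nearly equal. The mean of 2807 ± 107 FPKM (SD, n = 3) was the highest of the 22754 genes outside small RNA genes, and 6 small RNA genes had a higher listed value. The genes nearest to it in level, by the largest log2(FPKM + 1) difference over the 3 replicates, were Eef1a1, a translation elongation factor gene, at 0.19 and Stmn1, a gene of a tubulin-binding protein, at 0.86. Tuba1a exceeded Eef1a1 in each replicate, by ratios of 1.14, 1.08 and 1.07.

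Tuba1b and Tuba1c, broadly used alpha-tubulin genes that lie near Tuba1a on chromosome 15, were far lower than Tuba1a and close to each other. Tuba1c stood at 438, 417 and 425 FPKM and Tuba1b at 410, 399 and 397. Both were highest in replicate 1, and the values of Tuba1c all lay above those of Tuba1b. Tuba1a was 6.98 ± 0.141 times Tuba1b and 6.57 ± 0.112 times Tuba1c within replicates (SD, n = 3). Nearest in level were Rpl17 and Nrep for Tuba1c (largest differences of 0.03 and 0.04) and Crmp1 and Rps18 for Tuba1b (0.03 and 0.06). The coding sequences of these alpha genes are very alike, and how reads that match several of them were divided is not given, so the split between them is uncertain.

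Tuba4a, an alpha-tubulin gene known from mature neurons and platelets, stood at 3.90, 4.71 and 5.24 FPKM. It was lowest in replicate 1 and its highest value was 1.34 times its lowest, the widest relative range of the 9 genes above 1 FPKM. Ptplb and Elf1 were nearest in level (0.04 and 0.06).

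Tuba8, an alpha-tubulin gene known from testis and muscle, was listed at 0.0273, 0.0853 and 0.289 FPKM, and 15052 other genes outside small RNA genes had a higher mean. Its highest value was 10.6 times its lowest. Divided by the relative depths of the libraries, the values of replicates 2 and 3 came to 2.00 and 9.02 times that of replicate 1. Values so close to whole multiples are those of very few fragments, under the assumption that the most common ratio between low values is that of equal read numbers, so the differences between replicates in Tuba8 rest on the least data of any gene in the set.

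Among the beta genes, Tubb2b, a neuronal isotype, stood at 1516, 1430 and 1410 FPKM, with a mean of 1452 ± 56.3 (SD, n = 3). Replicate 1 was again the highest. Ptma, a prothymosin gene, and Stmn1 were nearest to it in level (0.08 and 0.15). Tubb2b ranked 5 among genes outside small RNA genes.

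Tubb5, a beta-tubulin gene of many cell types that is prominent in dividing progenitors, stood at 947, 922 and 907 FPKM and ranked 18. Its neighbours in level were Nnat, an imprinted gene of the developing brain (largest difference 0.02), and Fabp7, a radial glial gene (0.04). Tubb5 was the highest of the broadly used isotypes, above the neuronal isotypes Tubb2a and Tubb3 in every replicate.

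Tubb2a, a neuronal isotype close to Tubb2b in sequence and position, stood at 686, 689 and 674 FPKM. It was the steadiest tubulin gene, with a mean of 683 ± 7.80 FPKM (SD, n = 3) and a coefficient of variation of 1.14%. Tubb2b was 2.13 ± 0.0727 times Tubb2a within replicates. Tubb2a-ps2, named as a pseudogene of Tubb2a, was listed at 176, 184 and 180 FPKM, or 26.3% ± 0.599 of Tubb2a (SD, n = 3). Reads can be shared between such copies, so a share of either value may belong to the other gene, and the level of Tubb2a is uncertain. Rpl10 and Eef2, genes of translation, were nearest to Tubb2a in level (0.05 and 0.06).

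Tubb3, the beta-tubulin most widely used as a neuron marker, stood at 655, 643 and 638 FPKM, with replicate 1 the highest and a spread of 1.31% of the mean. It ranked 44, next to Marcksl1 (largest difference 0.03) and Rpl18 (0.03). Tubb6, a broadly used beta-tubulin gene, stood at 11.3, 12.1 and 12.3 FPKM, where replicate 1 was the lowest. Zfp90 and Rit1 were nearest to Tubb6 in level (0.02 and 0.03). Tubb5 was 77.9 ± 5.50 times Tubb6 within replicates (SD, n = 3).

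**Figure D1:**
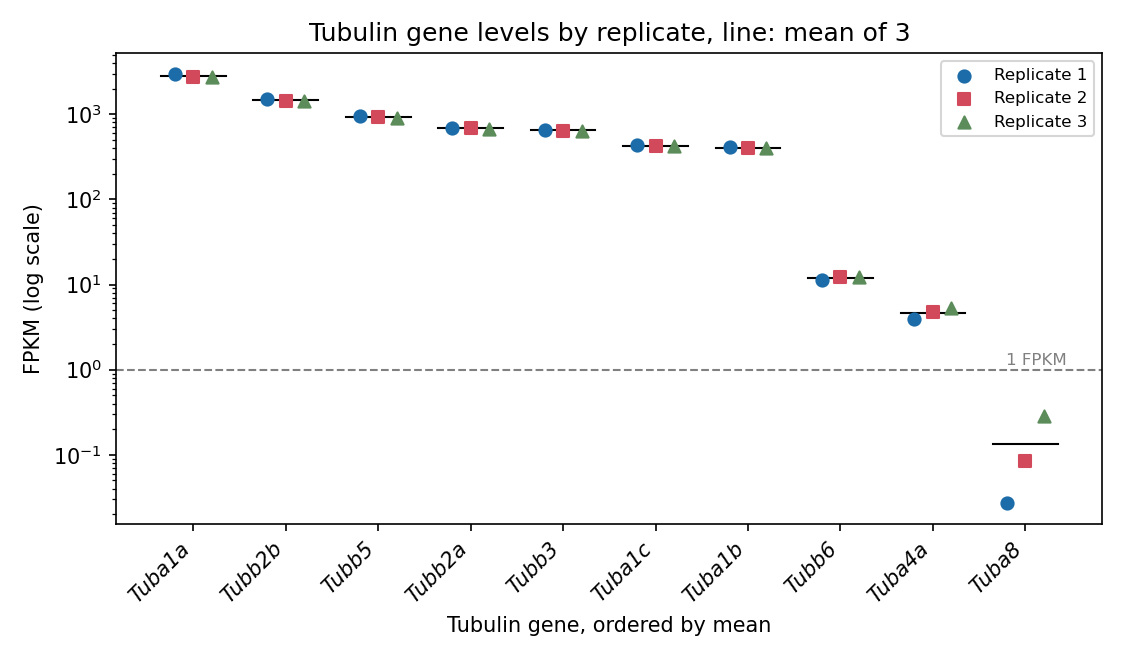
FPKM of each of the 10 tubulin genes on a log axis, with a point for each of 3 replicates and a line at their mean. There is a gap between 7 genes at 397 to 2930 FPKM and Tubb6 at 11.3 to 12.3, Tuba4a lies lower still, and Tuba8 alone falls below the dashed line at 1 FPKM.

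From highest to lowest mean, the order was Tuba1a, Tubb2b, Tubb5, Tubb2a, Tubb3, Tuba1c, Tuba1b, Tubb6, Tuba4a and Tuba8. In each of the 9 neighbouring pairs the replicate ranges did not overlap and the mean log2 ratio within replicates was over 2 SD of that ratio. The narrowest steps were those from Tubb2a to Tubb3, with log2 ratios of 0.07, 0.10 and 0.08, and from Tuba1c to Tuba1b, with 0.10, 0.06 and 0.10. The widest step between genes above 1 FPKM was that from Tuba1b to Tubb6, with a mean log2 ratio of 5.08 ± 0.0954 (SD, n = 3). An exact two-sided permutation test of 3 against 3 values gave p = 0.1 for each pair, the smallest it can give, and an adjusted p of 0.1 over the 9 pairs, so no pair could pass 0.05. The replicate spread does not cover errors that all replicates share, such as the division of reads between like genes, and those can exceed the narrow steps.

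Within the alpha family Tuba1a made up 77.1% ± 0.324 of the summed FPKM (SD, n = 3), Tuba1c 11.7% ± 0.154 and Tuba1b 11.0% ± 0.179. Tuba4a contributed 0.127% ± 0.0222. The alpha family was thus led by a single gene in each replicate, at 77.5%, 77.0% and 76.9%. The beta family was more even: Tubb2b made up 39.1% ± 0.594, Tubb5 24.9% ± 0.0653, Tubb2a 18.4% ± 0.344, Tubb3 17.4% ± 0.186 and Tubb6 0.320% ± 0.0225. The neuronal isotypes together held 74.8% ± 0.0845 of the beta sum, slightly below the share of Tuba1a, the neuronal isotype of the alpha genes, in every replicate. Tuba1a alone stood at 1.93 ± 0.0136 times Tubb2b.

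The alpha and the beta genes added up to nearly the same level. The alpha sum was 3783, 3567 and 3572 FPKM and the beta sum 3815, 3696 and 3641 FPKM in replicates 1, 2 and 3. Alpha stood at 0.992, 0.965 and 0.981 of beta, a mean ratio of 0.979 ± 0.0133 (SD, n = 3). The beta sum was the higher in all 3 replicates. Tubb4a, a beta-tubulin gene of neurons and oligodendrocytes, and Tubb4b, one of many cell types, were outside the set and stood at 138 ± 4.83 and 110 ± 0.986 FPKM. With them and the low genes Tuba3a, Tuba3b, Tubal3 and Tubb1 included, the ratio was 0.919 ± 0.0143, and Tubb4a and Tubb4b together were 6.25% ± 0.179 of the beta sum. With Tubb2a-ps2 added as well, a step chosen after the data were seen, it was 0.879 ± 0.0149.

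Across replicates, most tubulin genes were highest in replicate 1 by a few percent, and the lowest expressed members went the other way. Of the 9 genes whose mean reached 1 FPKM, 6 were higher in replicate 1 than in both others, where 36.3% of 12432 genes with such a mean were. These were Tuba1a, Tubb2b, Tubb5, Tubb3, Tuba1c and Tuba1b, with deviations from their own means of 0.02 to 0.06 in log2(FPKM + 1). Tubb6 and Tuba4a had their lowest value in replicate 1, with deviations of -0.07 and -0.19, where 36.5% of genes did, and Tubb2a stood between its other replicates. The median deviation of the 9 genes was 0.03, -0.01 and -0.02 in replicates 1, 2 and 3, and over all genes it was 0.00 in each.

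Marker lists moved between the replicates too. Of 9 neuron markers, 8 were highest in replicate 1, with a median deviation of 0.05, and of 7 neural progenitor markers 5 were, at 0.04. All 8 extraembryonic endoderm markers, Sparc and Gata4 among them, were lowest in replicate 1, at a median of -0.33, and their summed level was 394, 532 and 540 FPKM in the 3 replicates. No marker of that list was at 0. The 6 pluripotency markers summed to 31.3, 35.2 and 39.3 FPKM. Of the 4 whose mean reached 1 FPKM, 2 were lowest in replicate 1, and their median deviation there was -0.17. Of 3 such glial markers, 2 were lowest in replicate 1, at a median of -0.04. The part of these markers in the deviations of the tubulin genes was not tested.

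**Figure D2:**
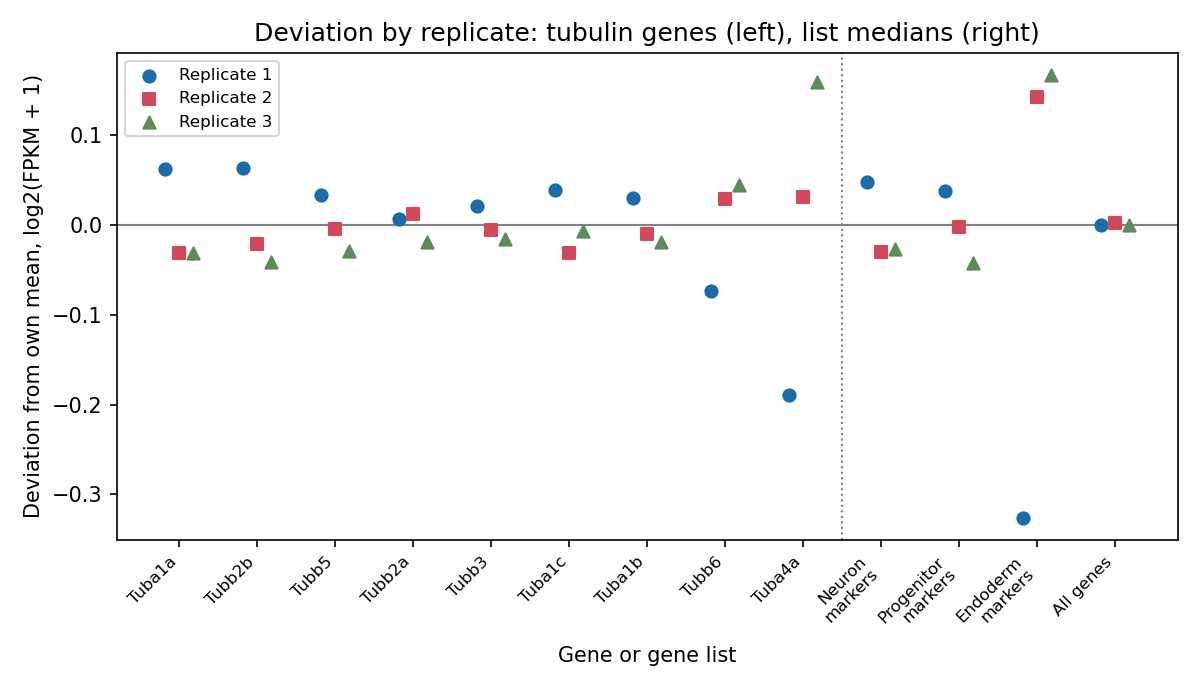
Deviation of each tubulin gene whose mean reached 1 FPKM from its own mean over 3 replicates, in log2(FPKM + 1), with the medians of 3 marker lists and of all genes at the right. Replicate 1 is the highest for 6 genes and for the neuron markers, and the lowest for Tubb6, Tuba4a and the endoderm markers.

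The spread between replicates lay on both sides of the median of all genes whose mean reached 10 FPKM, a background not matched to the members in level. Beside the nearest gene in level, the SD of Tuba1a was 107 FPKM against 11.2 in Eef1a1. That of Tubb2b was 56.3 FPKM against 10.3 in Ptma. Tubb5 and Tuba1c were also above their nearest gene, and Tubb2a, Tubb3, Tuba1b and Tubb6 were below theirs. The nearest gene was chosen by its values in every replicate, so a close match tends to bring a like spread. These comparisons therefore cannot serve as a background for spread. Among the 8 members whose mean reached 10 FPKM, the SD of log2(FPKM + 1) ran from 0.0165 in Tubb2a to 0.0639 in Tubb6, with a median of 0.0336, beside a median of 0.0486 over the 6116 genes with such a mean. Of the 8, 5 were under that median, which by definition divides all these genes evenly, and Tuba1a (0.0543), Tubb2b (0.0554) and Tubb6 were over it. With a replicate left out, 8 of the 8 were under the median without replicate 1, 4 without replicate 2 and 4 without replicate 3.

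Genes on the lists for tubulin folding were all expressed, where 50.7% of all 24002 genes were, at levels below those of the 7 high tubulin genes. Nascent tubulin is passed by prefoldin to the ring-shaped chaperonin CCT, whose 8 subunit genes stood between 55.7 (Cct8) and 134 FPKM (Cct7), with a median of 102. Between these 2 lay Cct5 at 80.8, Tcp1 at 93.2, Cct4 at 99.8, Cct2 at 104, Cct6a at 105 and Cct3 at 132 FPKM. All 6 prefoldin genes passed 1 FPKM, with a median of 55.4 and Pfdn2 highest at 188 ± 5.37 (SD, n = 3). The list of tubulin cofactors holds Tbca, Tbcb, Tbcc, Tbcd and Tbce, which act after CCT to join alpha to beta, with Arl2, a GTPase that works with them, and Tbcel, which destabilises tubulin. All 7 passed 1 FPKM, with a median of 16.1 FPKM. Tbca, which holds released beta-tubulin, stood at 114, 119 and 129 FPKM, above Tbcb, which holds alpha-tubulin, at 28.7, 33.1 and 29.8, and Tbce, which also binds alpha-tubulin, was the lowest at 3.94 ± 0.261.

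The genes of autoregulation were expressed as well: Ttc5 stood at 31.0, 27.8 and 30.6 FPKM, and Scaper and Cnot11, which link it to the deadenylase that shortens mRNA tails, at 7.87 to 8.20 and 7.83 to 8.47. Ttc5 lay above both in every replicate.

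Of the tubulins that serve other purposes, gamma-tubulin, which nucleates microtubules, came mainly from Tubg1 at 23.7 ± 0.867 FPKM, with Tubg2 at 3.29 ± 0.101. Delta- and epsilon-tubulin, which are linked to centrioles, stood at 2.37 ± 0.420 (Tubd1) and 2.18 ± 0.291 (Tube1). All 8 genes of the gamma-tubulin ring passed 1 FPKM, with a median of 8.59, led by the small subunit genes Mzt1 at 40.9 ± 1.09 and Mzt2 at 29.3 ± 1.05. Of the 6 further alpha and beta genes, 3 passed (Tubb4a, Tubb4b and Tuba3a), near the share of 50.7% among all genes. Tubal3 was listed at 0 in every replicate, and Tubb1, the beta-tubulin of platelets, at 0.0185 FPKM in replicate 1 and at 0 in the others.

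Enzymes that modify tubulin were expressed unevenly. Removal of the last tyrosine of alpha-tubulin by vasohibins with their partner SVBP, and its return by TTL, mark stable and dynamic microtubules, and all 4 genes passed: Svbp, found under its older symbol Ccdc23, at 81.8 ± 4.99 FPKM, Vash1 at 29.3 ± 1.47, Vash2 at 21.7 ± 1.42 and Ttl at 14.2 ± 0.370 (SD, n = 3). Atat1, which acetylates alpha-tubulin, stood at 52.8 ± 1.20, above the deacetylase genes Sirt2 (24.3 ± 0.801) and Hdac6 (12.6 ± 1.05). Of the 12 genes of TTLL enzymes, which add glutamate or glycine chains to the tails, 6 passed 1 FPKM and the list's median was 0.826 FPKM. Ttll1, a glutamylase gene, was far above the rest at 27.7, 27.6 and 28.5 FPKM, and the next was Ttll4 at 3.38 ± 0.161. Of 6 genes of the carboxypeptidases that remove glutamates, 3 passed, with Agbl5 at 15.1 ± 0.903 and Agtpbp1, whose loss causes degeneration of Purkinje neurons, at 11.7 ± 0.549. Over the 11 lists of genes acting with or on tubulin, 55 of 67 genes passed 1 FPKM, with a median of 12.6 FPKM. Of all 24002 genes, 50.7% passed, so the counts of the TTLL and carboxypeptidase lists were near that share.

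**Figure D3:**
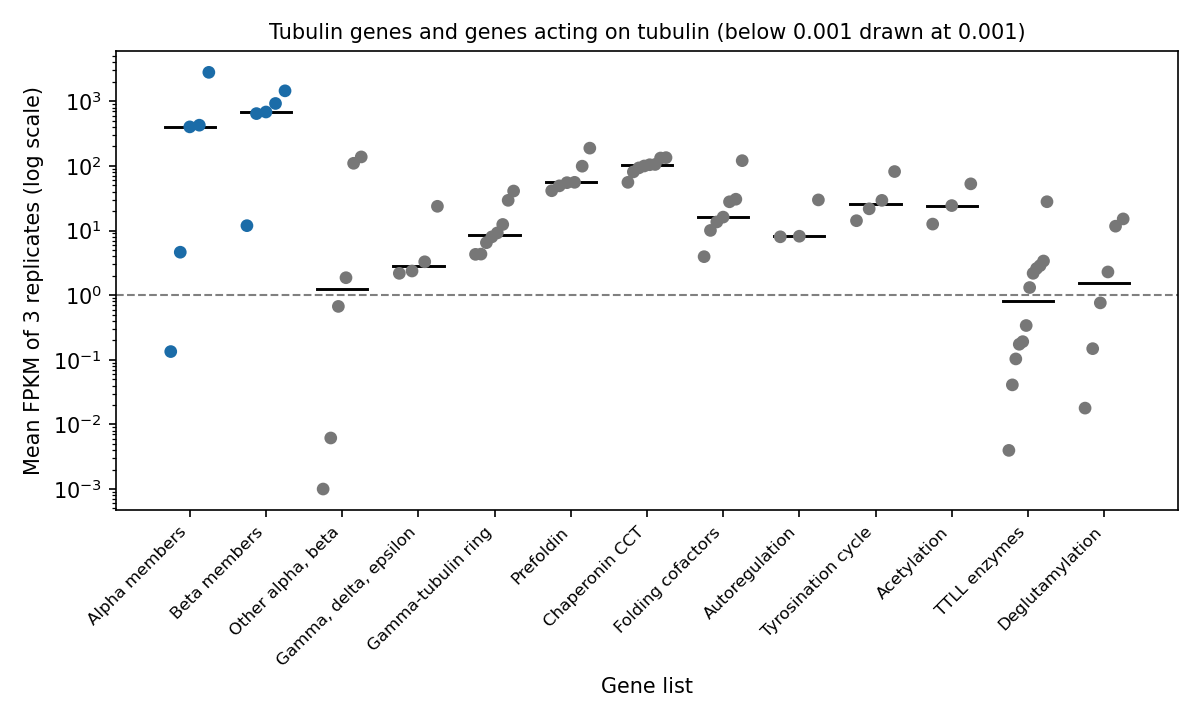
Mean FPKM of 3 replicates on a log axis for the alpha and beta genes of the set (blue) and for genes in 11 lists of other tubulins, folding, nucleation, autoregulation and modification (grey). Each point is a gene and each line a list's median. The chaperonin CCT genes sit at 55.7 to 134 FPKM, while the TTLL enzyme genes spread from Ttll1 at 27.9 to values near 0.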

How the data were processed

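RNA-seq was run on 3 samples and ATAC-seq on 3 others of the same condition, with groups and replicate numbers taken from the titles. Per the submitters' processing notes, Bowtie and Cufflinks were used with build mm9, and versions, settings and strand use were not given in the sources used here. No unit stands in the header of the table the authors deposited, which was taken to hold FPKM because Cufflinks is named and the values have its form. Whether the libraries were scaled to each other is not given. The accessible regions and protein sequences were not used here: the regions are in mm9, and no annotation of that build was used.

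Means, SD, shares and ratios were computed from the FPKM as given, with Python 3.11.15, pandas 2.3.3 and numpy 2.4.6. Deviations and spread used log2(FPKM + 1), which understates differences of low genes. Filters were a mean of at least 1 FPKM for deviations and 10 FPKM for spread. Neighbouring pairs were tested with an exact unpaired permutation test (scipy 1.17.1) with Benjamini-Hochberg adjustment. Relative depth came from the most common ratio of values between 0.001 and 0.1 FPKM within 0.004 (natural log). That ratio was found for 234 of 1046 genes between replicates 1 and 2 and 207 of 1170 between replicates 1 and 3. The procedure was tested only on simulated whole read counts, with no reads shared between genes and no scaling between libraries. That simulation cannot show whether the estimate holds for the deposited values. Absolute depth is unknown, so no counting interval is given. Small RNA genes were set aside by RefSeq biotype and symbol. Promoter sequences were matched by symbol.

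Named genes are the 10 members, the genes of the pathway and marker lists, and the 2 other genes nearest in level to each member whose mean reached 1 FPKM. The members and lists were chosen with earlier results of these data known. Alternatives were scaling, pseudocount, thresholds, filters, added genes and each replicate left out.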

Additional observations from a re-analysis of the deposited data

How the results depend on the processing

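The order of the 10 genes was the same under upper quartile scaling, under equal sums without small RNA genes and without each replicate. The ratio of alpha to beta moved beyond its spread when genes were added: from 0.979 to 0.919 with the other tubulin genes, and to 0.879 with Tubb2a-ps2 as well, an alternative chosen after seeing the data. Adding the other tubulin genes also lowered the beta shares to 36.6% for Tubb2b, 23.3% for Tubb5, 17.2% for Tubb2a and 16.3% for Tubb3. The number of members under the median spread was 5, and it ran from 4 to 8 with a replicate left out, with 8 without replicate 1 and 4 without either of the others. With a replicate left out, the summed level lay between 7238 and 7430 FPKM, the ratio of alpha to beta between 0.973 and 0.986, and the expressed members and the neighbouring pairs beyond their spread stayed at 9 each. Tuba8, which rests on very few fragments, had a mean of 0.0563 to 0.187 FPKM. At a threshold of 5 FPKM, 8 members passed, without Tuba4a. Of 127 values under alternatives, 120 moved by less than the spread between replicates or, for counts, by no more than 1.5 times. Leaving out 1 of 3 replicates cannot move a mean by as much as their SD. For levels, shares and the ratio those alternatives were therefore bound to fall among the 120, which says nothing about how firm they are. No paired analysis was possible between groups because the RNA-seq and ATAC-seq groups measure different things and a single condition gives no groups to compare. Between genes, the log2 ratios of neighbouring pairs were paired, as each was taken within a replicate. The permutation test of those pairs was unpaired and did not use that pairing.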
